A study of Homo sapiens with 18 samples.

Results

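The insulin-like growth factor (IGF) axis was followed through 9 genes, chosen by name for their roles, of the 57500 genes counted. They were the ligand IGF2, the receptors IGF1R, INSR and IGF2R, the receptor substrates IRS1 and IRS2, and the binding proteins IGFBP2, IGFBP3 and IGFBP5. All 9 symbols matched a gene of the counts. A further 68 genes of the same pathway, from other ligands to PI3K, mTOR, FOXO and RAS signalling, were read beside them.

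RNA-seq was carried out in ES8, a Ewing sarcoma cell line, and Rh30, an alveolar rhabdomyosarcoma cell line. In both lines cells carrying dCas9-KRAB, a catalytically dead Cas9 fused to a transcriptional repressor (CRISPRi), received a guide RNA by lentivirus and were selected in puromycin for 72 hours before lysis. Parental cells received a non-targeting guide (sgCTL) or a guide to DNAJC17 (sgDNAJC17), which encodes a J-domain co-chaperone of HSP70, and cells of genotype 3xFLAG-DNAJC17-dRRM (called ΔRRM cells here), which stably express an allele without the RNA recognition motif from a lentivirus with an EF1 promoter, received sgDNAJC17. Each of the 6 conditions had 3 libraries, named A, B and C, from cells plated in triplicate, so p-values measure the spread between these platings. ΔRRM cells are a separately derived population in each line and were not sequenced with sgCTL, so that the effect of the allele, of its derivation and of the guide cannot be told apart in any comparison that uses them.

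IGF2 and IGF1 are secreted ligands that bind the receptor tyrosine kinase IGF1R, and IGF2 also binds the insulin receptor, INSR. The active receptors phosphorylate the docking proteins IRS1 and IRS2, which recruit PI3K and adaptors of the RAS pathway. IGF2R takes up IGF2 for breakdown in lysosomes, and the IGFBP proteins hold IGFs outside the cell. Rhabdomyosarcoma and Ewing sarcoma cells are both known for signalling through IGF1R, with IGF2 as a frequent autocrine ligand of rhabdomyosarcoma.

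Coordinates are those of the deposited counts on GRCh38. IGF2 lay at chr11:2129112-2141238 on the minus strand and shared 21.9% of its 6259 exonic bases with other genes of that strand, chiefly the read-through gene INS-IGF2, so reads of the shared part could not be assigned to one gene. The receptor genes were long: IGF1R (chr15:98648971-98964530, plus strand) had 13509 exonic bases, INSR (chr19:7112255-7294034, minus strand) 10451 and IGF2R (chr6:159969099-160113507, plus strand) 14911. IRS1 (chr2:226731317-226799759) and IRS2 (chr13:109752698-109786568), both on the minus strand, held 3 and 2 merged exons and 9953 and 8138 exonic bases. IGFBP2 (chr2:216632828-216664436, plus strand) and IGFBP5 (chr2:216672105-216695525, minus strand) are neighbours whose 3' ends face each other across 7668 bases, and IGFBP3 lay at chr7:45912245-45921874 on the minus strand.

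FOXO transcription factors, which are held in the cytoplasm when the axis signals, are known to bind letters of the type GTAAACA and the insulin response element CAAAACA. Both were searched on both strands of the RefSeq promoters (GRCh38, 250 bases before to 50 after the start), which 8 of the 9 genes had. GTAAACA was in 0 of these 8 and in 3.41% of all 27305 promoters, and CAAAACA was in 1 of the 8, that of IRS2, and in 4.91% of all. The stretch in IRS2 is shown as the only match among the 8. It lies at chr13:109786606-109786634 on the minus strand and is written along that strand, with the reverse complement of CAAAACA in capitals.
IRS2: gagtcacatgtTGTTTTGctcttcttagt
The match is a description of letters and not a binding site.

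The libraries held 35342393 to 48245989 counts. DNAJC17 in sgDNAJC17 libraries stood at 1.56 to 1.96 CPM (counts scaled to library size by TMM) in ES8 and 2.20 to 2.72 CPM in Rh30, against 11.2 to 12.4 and 10.8 to 11.9 CPM with sgCTL. In ΔRRM libraries it stood at 283 to 312 and 336 to 368 CPM, since the introduced allele is counted with the gene. Of 5 Ewing sarcoma markers, NKX2-2, NR0B1, STEAP1 and PRKCB averaged 46.0 to 165 CPM in ES8 sgCTL libraries and at most 0.04 CPM in those of Rh30, whereas CD99 averaged 318 and 343 CPM. The summed level of 5 muscle lineage markers was 1668 to 2551 CPM in Rh30 and 0.738 to 4.10 CPM in ES8. Summed over 10 epithelial markers, Rh30 libraries held 1.36 to 1.65 CPM with sgCTL, 13.1 to 19.1 CPM with sgDNAJC17 and 14.2 to 16.6 CPM in ΔRRM cells. All 5 of these genes that could be tested in Rh30 (KRT8, KRT18, KRT19, CDH1 and TFF1) were higher in both comparisons with sgCTL, while CLDN7 and RAB25 were at 0 with sgCTL. EPCAM and ELF3, at 1 to 12 and 2 to 8 counts per Rh30 library, showed no such rise. The sum was thus higher in both Rh30 groups set against Rh30 sgCTL below, whichever way a gene went. Its part in these differences was not tested. Whether the 6 libraries of Rh30 sgDNAJC17 and ΔRRM cells held RNA of other cells was not tested either. In ES8 the same sum was 34.7 to 45.2 CPM in all 9 libraries. In bulk RNA, fewer cells with a transcript and less of it per cell cannot be told apart.

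With the control guide the lines differed most in binding proteins, IRS2 and IGF2. All 9 genes differed between Rh30 and ES8 (edgeR, adjusted p under 0.05), where 87.5% of the 17925 genes tested did. Of the 9, 2 were higher in Rh30 and 7 lower (42.0% and 45.5% of genes), and 5 did so by at least 2-fold (50.9% of genes). IGF2 stood at 74.5, 65.7 and 71.8 CPM in the Rh30 libraries and at 8.32, 8.11 and 7.11 CPM in ES8. The ligand was thus 8.84-fold higher in Rh30 (log2 fold change 3.14 ± 0.07, SE, n = 3 per group, adjusted p = 2.41e-35). IRS2 went the other way, with 20.9, 19.4 and 18.8 CPM in Rh30 against 168, 175 and 169 CPM in ES8 (log2 fold change -3.14 ± 0.06, adjusted p = 1.01e-38).

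IGFBP2 had 191, 204 and 192 CPM in ES8, where 92.6% of the genes above 1 CPM lay below it per kilobase, but only 18 to 32 counts per library in Rh30 sgCTL cells. IGFBP5, which binds IGFs in the matrix of bone and muscle, had 49.2, 50.0 and 52.2 CPM in ES8 and 12 to 21 counts per Rh30 sgCTL library. The log2 differences were -8.51 ± 0.10 and -7.11 ± 0.12 (adjusted p = 5.36e-46 and 7.07e-40). IGFBP3 was scarce in both lines, with 86 counts over the ES8 sgCTL libraries and 2 over those of Rh30, a ratio of 36.9 with an exact 95% counting interval of 9.91 to 310. Over all 9 Rh30 libraries it had 4 counts, and 6 of these libraries held 0, which allows a level of up to 0.067 to 0.10 CPM by counting error alone. No change of IGFBP3 could therefore be measured in Rh30.

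The receptors and IRS1 were closer. IGF2R was 1.71-fold higher in Rh30 (log2 fold change 0.78 ± 0.05, adjusted p = 1.99e-18), and INSR, IRS1 and IGF1R were lower by -0.48 ± 0.08, -0.29 ± 0.05 and -0.16 ± 0.05 on the log2 scale (adjusted p = 4.26e-07, 1.07e-06 and 0.00277). The direction of IGF1R turned, to 0.05, once the trend with gene length was removed. In RPKM, reads scaled to library size and to exonic length, the order in ES8 was IGFBP2 at 41.0 ± 1.5 (SD, n = 3), IRS2 at 21.0 ± 0.5, IRS1 at 12.7 ± 0.1, IGF2R at 9.36 ± 0.22, IGFBP5 at 7.84 ± 0.24, IGF1R at 6.79 ± 0.20, INSR at 2.10 ± 0.06, IGF2 at 1.25 ± 0.10 and IGFBP3 at 0.13 ± 0.02. In Rh30 it was IGF2R at 16.4 ± 1.2, IGF2 at 11.3 ± 0.7, IRS1 at 10.7 ± 0.6, IGF1R at 6.17 ± 0.33, IRS2 at 2.42 ± 0.13 and INSR at 1.54 ± 0.24, with the binding proteins below 0.2. The libraries of IGF2 and IRS1 overlapped in Rh30 in this measure, and no other neighbours above 1 RPKM did in either line.

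**Figure D1:**
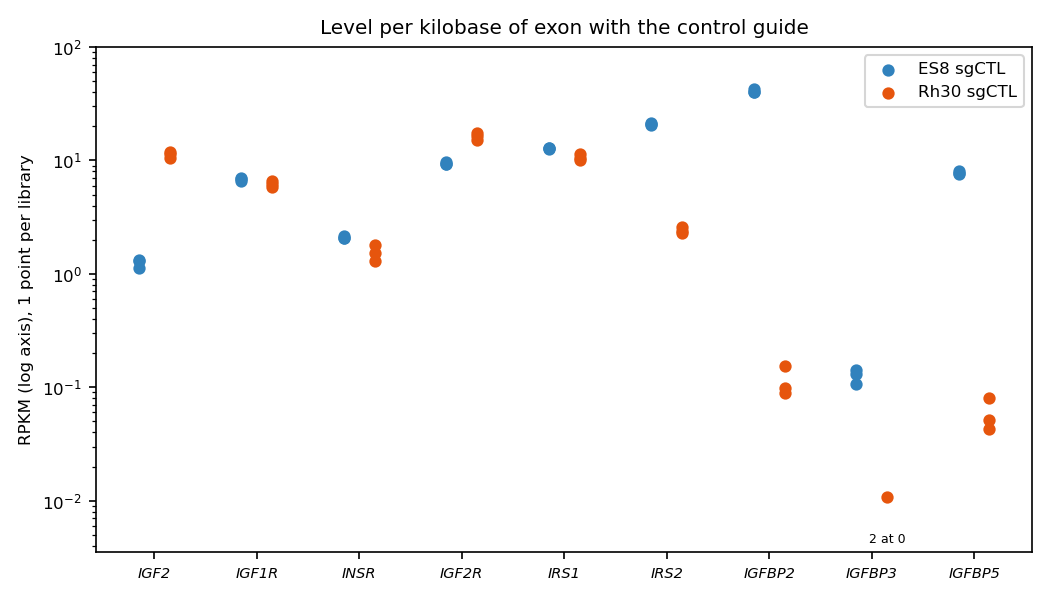
Level of the 9 genes in sgCTL libraries of ES8 (blue) and Rh30 (orange), in RPKM on a log axis with 1 point per library. IGF2 and IGF2R lie higher in Rh30, IRS2 and the 3 binding proteins far lower, and 2 of 3 Rh30 libraries hold no IGFBP3 count.

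The ratio of IRS1 to IRS2 per kilobase within a library was 0.594 to 0.617 in ES8 and 4.21 to 4.60 in Rh30 sgCTL cells, a 7.25-fold difference. The ratio of IGF1R to INSR was 3.14 to 3.36 in ES8 and 3.66 to 4.50 in Rh30. Neither pair of ranges overlapped, and both gave p = 0.1 in a two-sided exact permutation test, the smallest that 3 against 3 libraries can give (adjusted p = 0.143 over the 10 ratio comparisons made).

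With sgDNAJC17 in ES8, IRS2 and IGFBP2 rose and IGFBP5 fell, 3 of 9 genes past the test, where 27.4% of the 17143 genes tested were, 13.6% higher and 13.8% lower. None of the 9 moved by 2-fold (1.95% of genes). The median log2 fold change of the 9 genes was 0.14, against -0.02 over all genes. IRS2 was at 239, 210 and 202 CPM with sgDNAJC17 in libraries A, B and C, above all sgCTL libraries (log2 fold change 0.32 ± 0.07, adjusted p = 0.00781). IGFBP5 was at 36.7, 36.7 and 36.2 CPM, below all sgCTL libraries, and fell by 0.49 ± 0.06 on the log2 scale (adjusted p = 0.000721). How common such separation was among all genes was not counted. IGFBP2 was at 267, 229 and 224 CPM (log2 fold change 0.27 ± 0.07, adjusted p = 0.0234). This call was lost when any 1 of the sgCTL libraries A, B or C was left out (adjusted p = 0.104, 0.0511 and 0.103).

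The ligand, the receptors and IRS1 did not pass the test in ES8, although IRS1 did after removal of a trend with gene length (0.30, adjusted p = 0.0247). INSR passed with trends of length and GC content removed (0.23, adjusted p = 0.013), and IGF2R with scaling by library size alone (-0.19, adjusted p = 0.0204). In the main test the log2 fold changes were -0.17 ± 0.12 for IGF2 (adjusted p = 0.332), -0.02 ± 0.06 for IGF1R (0.839), 0.14 ± 0.08 for INSR (0.22), -0.14 ± 0.06 for IGF2R (0.0978) and 0.18 ± 0.07 for IRS1 (0.0751), and IGFBP3 was at 0.29 ± 0.24 (0.409). The sgDNAJC17 library A was the highest of its group for IGF2, IGF1R, INSR, IGF2R, IRS1, IRS2 and IGFBP2, and not for IGFBP3 or IGFBP5. Without it 6 of the 9 genes passed, as did 7994 of all genes, since IGF2 (-0.25, adjusted p = 0.047), IGF2R (-0.19, adjusted p = 3.51e-05) and IRS1 (0.11, adjusted p = 0.0179) were added.

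In Rh30 the ligand and all 3 receptors fell with sgDNAJC17 and IRS2 rose. Of the 8 genes tested, 4 fell and 1 rose, 5 in all, where 32.3% of the 15391 genes tested passed, 16.1% higher and 16.2% lower. None of the 8 moved by 2-fold (1.55% of genes). The median log2 fold change was -0.21, against 0.00451 over all genes. IGF2 went from 74.5, 65.7 and 71.8 CPM with sgCTL to 47.2, 39.6 and 37.9 CPM, with no overlap. It was 0.595 times its control level (log2 fold change -0.75 ± 0.08, adjusted p = 3.18e-05).

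Among the receptors, IGF2R had 261, 225 and 245 CPM with sgCTL and 194, 154 and 142 CPM with sgDNAJC17 (log2 fold change -0.56 ± 0.09, adjusted p = 0.00066). IGF1R, the signalling receptor, had 88.1, 79.2 and 83.0 CPM against 69.5, 57.7 and 53.7 CPM (-0.45 ± 0.08, adjusted p = 0.00121). INSR had 18.6, 13.6 and 16.1 CPM against 13.0, 11.9 and 11.0 CPM (-0.41 ± 0.11, adjusted p = 0.0108). The groups did not overlap for any of the 3, though the share of all genes without overlap was not counted. The sgDNAJC17 library A was the highest of its group in each. The INSR call was lost without the sgCTL library A (log2 fold change -0.29, adjusted p = 0.0643).

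The substrates moved apart from the receptors. IRS2 had 20.9, 19.4 and 18.8 CPM with sgCTL and 34.2, 24.6 and 23.4 CPM with sgDNAJC17, a 1.41-fold rise (log2 fold change 0.49 ± 0.11, adjusted p = 0.00501). IRS1 had 113, 99.9 and 106 CPM against 140, 119 and 107 CPM, and its log2 fold change of 0.22 ± 0.08 did not pass (adjusted p = 0.0605). Same-letter libraries deviated together in this comparison, although the labels state no pairing and the main test had no block. With the replicate block the value for IRS1 was 0.21 and passed (adjusted p = 0.000362). It also passed with DESeq2 (0.21, adjusted p = 0.0497), with no filter on low counts (0.20, adjusted p = 0.0277) and without the sgDNAJC17 library C (0.30, adjusted p = 0.0148). IGFBP2 and IGFBP5, at 18 to 32 and 7 to 25 counts per library, had intervals of -0.45 to 0.88 and -0.94 to 0.90 and could not be resolved.

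**Figure D2:**
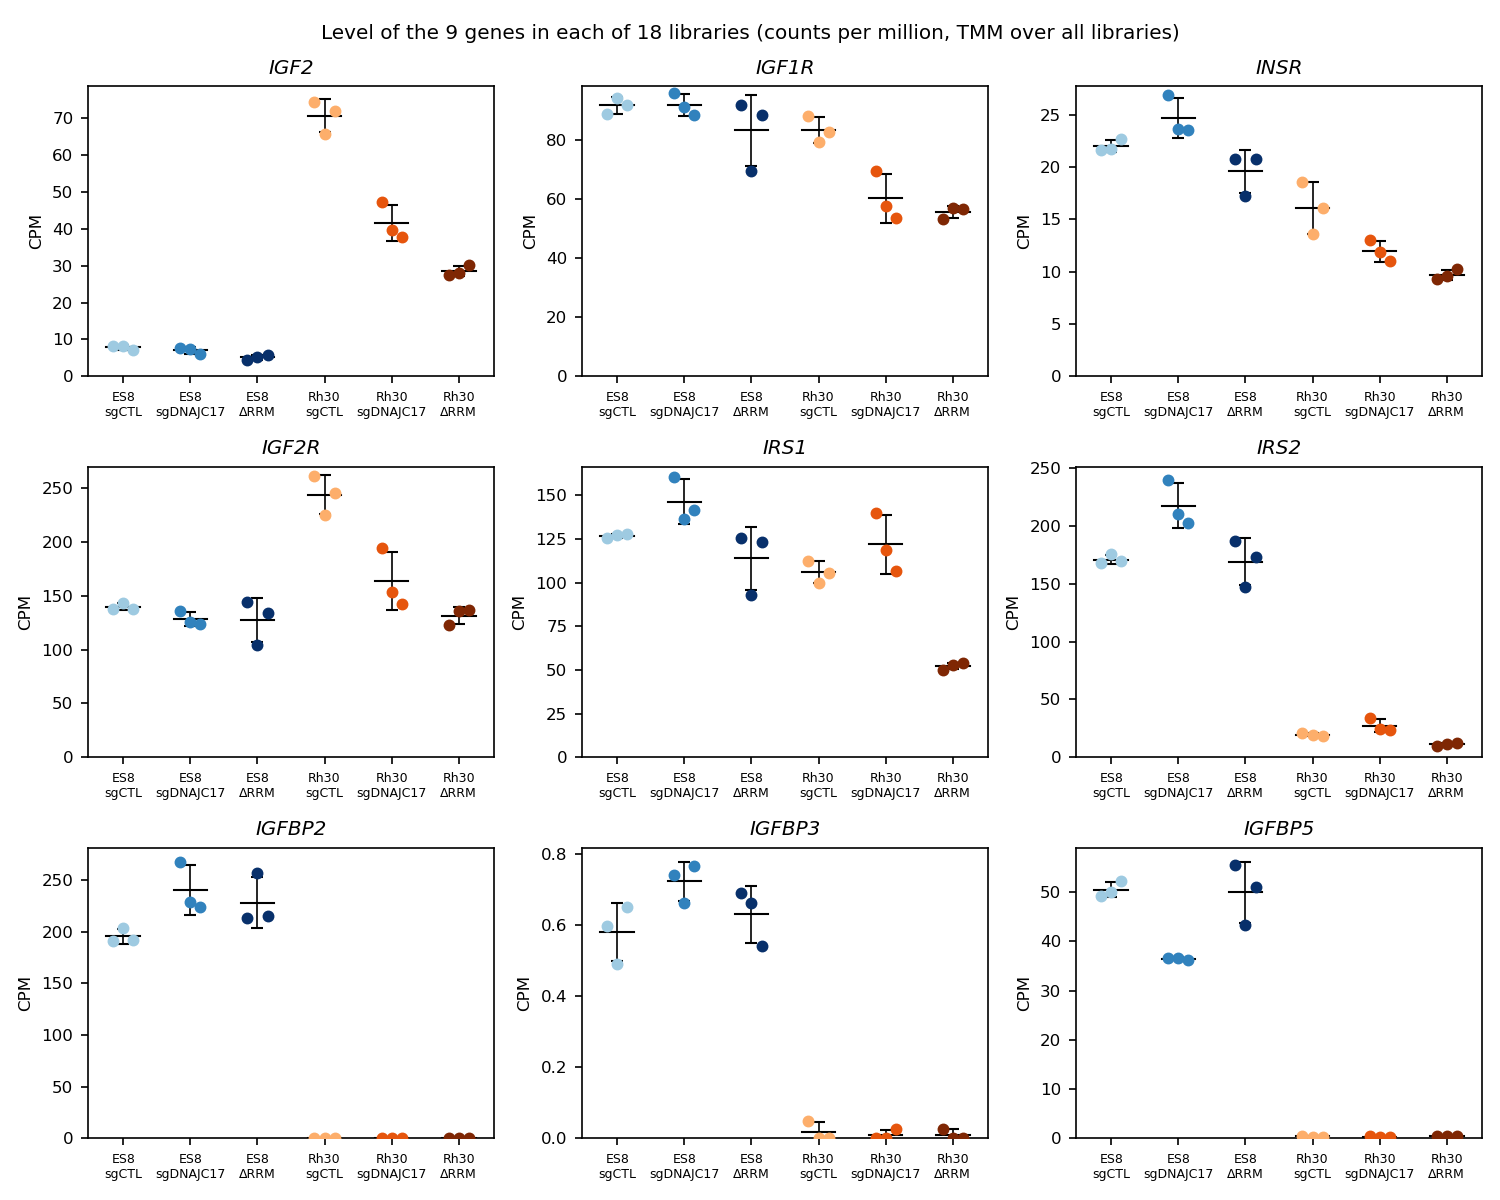
Level of each of the 9 genes in CPM, 1 panel per gene, with 1 point per library in the order A, B, C, and bars for the mean and SD of 3 libraries in each of 6 conditions (the groups marked ΔRRM also carry sgDNAJC17). In Rh30 the means of the ligand and receptors step down from sgCTL to sgDNAJC17 to ΔRRM, whereas IRS1 and IRS2 are lowest in ΔRRM cells and highest with sgDNAJC17.

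The responses of the lines to sgDNAJC17 differed for 4 of 9 genes, all more negative in Rh30, where 9.78% of 18899 genes differed, 5.23% more positive and 4.55% more negative in Rh30. Of the 9, IGFBP2, IGFBP3 and IGFBP5 had few counts in Rh30 (SE 0.28, 1.54 and 0.34), so a difference could hardly be seen. The difference of the log2 fold changes, Rh30 minus ES8, was -0.55 ± 0.15 for IGF2 (adjusted p = 0.0224), -0.53 ± 0.15 for INSR (0.0262), -0.41 ± 0.11 for IGF1R (0.027) and -0.40 ± 0.12 for IGF2R (0.0483). Those of the substrates did not pass, at 0.06 ± 0.12 for IRS1 (95% interval -0.20 to 0.31) and 0.19 ± 0.15 for IRS2 (-0.11 to 0.50). With trends of length and GC content removed, IRS2 passed in the positive direction (0.36, adjusted p = 0.00952), and the other 4 still passed. These calls were not stable to leaving out 1 library. Leaving out 1 library gave 0 to 4 genes past the test, with none left without ES8 sgCTL C, Rh30 sgCTL C, Rh30 sgDNAJC17 B or Rh30 sgDNAJC17 C, 1 without ES8 sgCTL A, 2 without ES8 sgCTL B or Rh30 sgCTL A, and 3 without ES8 sgDNAJC17 A. All genes past the test numbered 1848 with every library. They were 1009 to 1149 without ES8 sgCTL A or C, Rh30 sgCTL A, or Rh30 sgDNAJC17 B or C. With 1 library left out, the differences of the 4 genes lay between -0.67 and -0.31.

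In ΔRRM cells of ES8 with sgDNAJC17, 0 of 9 genes differed from sgCTL by edgeR, where 0.174% of 17199 genes did (0.0930% higher, 0.0814% lower, and 0.0349% by 2-fold). At an unadjusted p under 0.05 there were 2, IGF2 and IGFBP2, and DESeq2 called 1, IGF2. The ligand was at 4.39, 5.12 and 5.88 CPM, below all sgCTL libraries. It differed by -0.62 ± 0.12 on the log2 scale, with adjusted p = 0.0768 by edgeR and 0.0101 by DESeq2. It also passed in edgeR without the ΔRRM library A (adjusted p = 0.0465) or B (0.0222). IGFBP2 was at 213, 256 and 215 CPM, above all sgCTL libraries (0.22 ± 0.08, adjusted p = 0.29). Separation of this kind was not counted over all genes. The remaining 7 genes had log2 fold changes of -0.17 to 0.11. The ΔRRM library B had the lowest IGF1R, INSR, IGF2R, IRS1, IRS2 and IGFBP5 and the highest IGFBP2 of its group.

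Set against sgDNAJC17 alone, ES8 ΔRRM cells had more IGFBP5 and less IRS2. These 2 of 9 genes passed where 14.7% of 17099 did, 7.35% higher and 7.36% lower, and neither by 2-fold (1.97%). IGFBP5 was at 55.6, 43.3 and 51.0 CPM in ΔRRM cells, above all sgDNAJC17 libraries (log2 fold change 0.47 ± 0.11, adjusted p = 0.012). IRS2 was at 187, 147 and 173 CPM, below all of them (-0.34 ± 0.11, adjusted p = 0.0474). Both calls were fragile. That for IRS2 was lost without ΔRRM library B or C or any 1 sgDNAJC17 library (adjusted p = 0.0666 to 0.118), and that for IGFBP5 without ΔRRM library A or C or sgDNAJC17 library B (0.0511 to 0.06). IRS1, INSR and IGF2 were also below all sgDNAJC17 libraries but did not pass (log2 fold changes -0.34, -0.31 and -0.44, adjusted p = 0.0731, 0.0898 and 0.0702). How many of all genes were separated in this way was not counted.

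In Rh30 the ΔRRM cells with sgDNAJC17 had less of the ligand, of all 3 receptors and of both substrates than sgCTL cells, 6 of the 8 genes tested, and none was higher. The sgCTL libraries are those of the sgDNAJC17 comparison, so the values of both stand side by side and are not independent. Here 68.8% of the 15442 genes tested differed, so a share of 75% is near the background, whereas 35.0% of all genes were lower and 33.8% higher. The median log2 fold change of the 8 genes was -0.74, against -0.01 over all. IGF2 had 27.6, 28.0 and 30.1 CPM in ΔRRM cells and was 0.414 times its control level (log2 fold change -1.27 ± 0.07, adjusted p = 4.11e-24), the only one of the 8 to pass with at least 2-fold (9.97% of genes). The highest ΔRRM library lay below the lowest sgDNAJC17 library, at 37.9 CPM, and the lowest sgCTL library, at 65.7 CPM.

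IRS1 had 50.2, 52.7 and 53.9 CPM in ΔRRM cells against 99.9 to 113 CPM with sgCTL (-0.98 ± 0.06, adjusted p = 1.31e-20). IRS2 had 9.93, 11.4 and 12.2 CPM against 18.8 to 20.9 CPM (-0.78 ± 0.09, adjusted p = 1.03e-11). Of the receptors, IGF2R had 123, 135 and 136 CPM (-0.85 ± 0.06, adjusted p = 4.41e-18), INSR 9.28, 9.58 and 10.2 CPM (-0.70 ± 0.10, adjusted p = 3.96e-09) and IGF1R 53.4, 57.2 and 56.6 CPM (-0.54 ± 0.06, adjusted p = 3.65e-11). For each of these 5 genes all ΔRRM libraries lay below all sgCTL libraries. The share of all genes separated in this way was not counted, and 68.8% passed the test in either direction. IGFBP2 and IGFBP5 had 13 to 19 counts per ΔRRM library and intervals of -1.0 to 0.50 and -0.42 to 1.17. Summed muscle lineage markers were also lower, at 1668 to 1859 CPM against 2486 to 2551 CPM with sgCTL, with 4 of the 5 markers lower and MYF5 higher, and their part in the result was not tested.

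**Figure D3:**
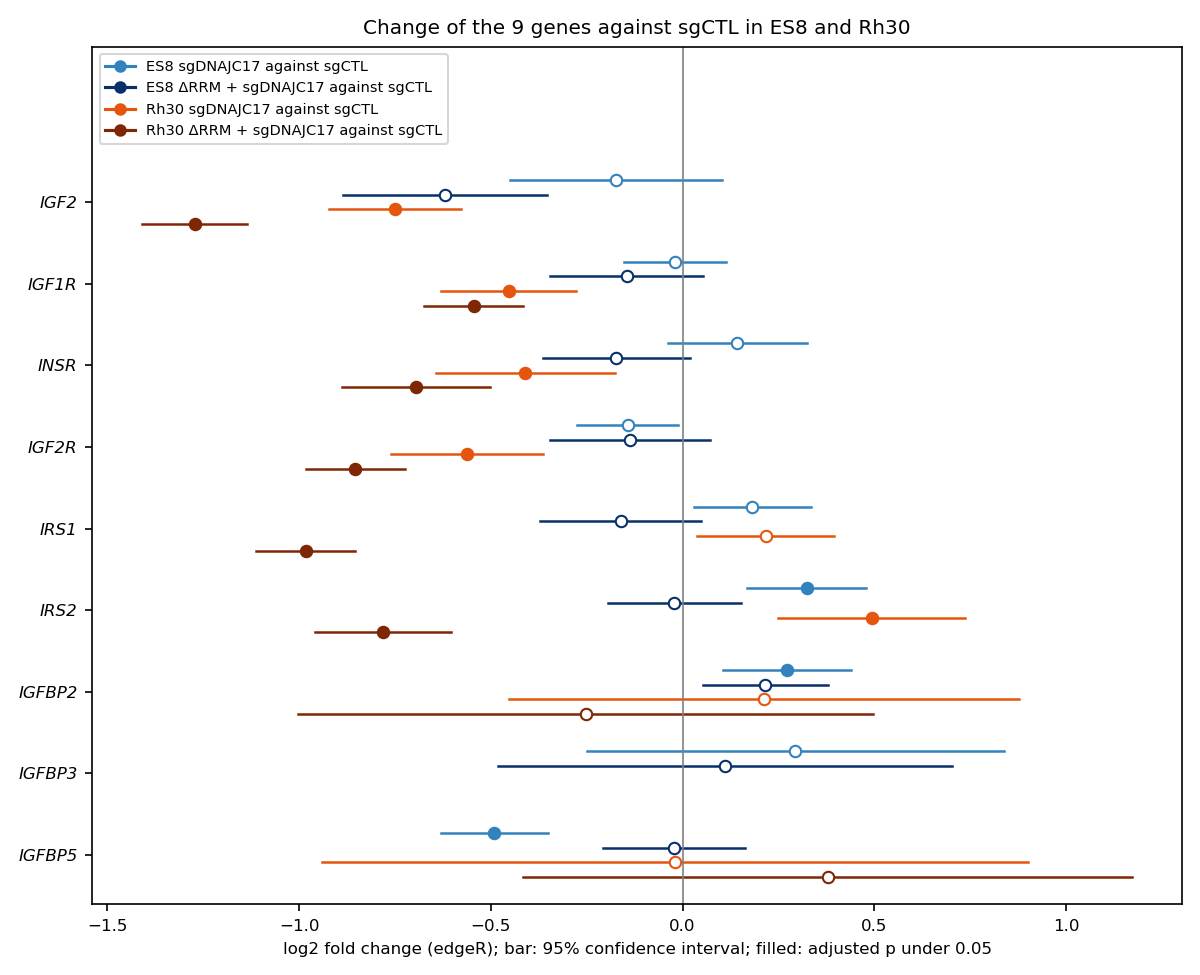
Log2 fold change of each gene against sgCTL (edgeR) with its 95% confidence interval, for sgDNAJC17 and for ΔRRM cells with sgDNAJC17 in each line. Filled points passed at an adjusted p under 0.05. The comparisons within a line share the same 3 sgCTL libraries, and IGFBP3 was not tested in Rh30.

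Against sgDNAJC17 alone, Rh30 ΔRRM cells had lower levels of 5 of the 8 genes, where 60.0% of 15309 genes differed, 29.4% higher and 30.5% lower. The substrates differed most, IRS2 by -1.28 ± 0.10 and IRS1 by -1.21 ± 0.08 on the log2 scale (adjusted p = 6.59e-19 and 7.27e-23), the only 2 past 2-fold (7.79% of genes). IGF2 differed by -0.53 ± 0.09 (adjusted p = 1.37e-07), IGF2R by -0.30 ± 0.08 (0.000955) and INSR by -0.30 ± 0.11 (0.0138), the last of which was lost without ΔRRM library A (adjusted p = 0.0737) or sgDNAJC17 library A (0.054). IGF1R did not pass, at -0.10 ± 0.08 (0.279). IRS1 and IRS2 were thus on opposite sides of sgCTL in the sgDNAJC17 and ΔRRM cells of Rh30, with the IRS1 value for sgDNAJC17 short of the test without the block, while IGF2, INSR and IGF2R were below it in both and lowest in ΔRRM cells.

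The difference between the lines in the ΔRRM comparison passed for 6 of 9 genes, all more negative in Rh30, where 41.4% of 18854 genes differed, 19.9% more positive and 21.5% more negative. IGFBP2, IGFBP3 and IGFBP5 were again limited by their few counts in Rh30 (SE 0.29, 1.55 and 0.32). Rh30 minus ES8 was -0.82 ± 0.12 for IRS1 (adjusted p = 7.46e-06), -0.76 ± 0.12 for IRS2 (2.22e-05), -0.71 ± 0.12 for IGF2R (4.81e-05), -0.65 ± 0.14 for IGF2 (0.000453), -0.52 ± 0.15 for INSR (0.00537) and -0.40 ± 0.12 for IGF1R (0.00712). All 6 passed whichever 1 library was left out. With trends of length and GC content removed, IGF2 (-0.18, adjusted p = 0.231) and IGF1R (-0.10, adjusted p = 0.29) were lost.

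Gene length moved with the values in both lines. Of the 9 genes, 5 (IGF1R, INSR, IGF2R, IRS1 and IRS2) have at least 8000 exonic bases. In ES8, tested genes of that length had median log2 fold changes against sgCTL of -0.12 with sgDNAJC17 and -0.09 in ΔRRM cells. The 2816 tested genes of that length had a median log2 fold change of -0.33 in Rh30 ΔRRM cells against sgCTL, and the 2811 tested with sgDNAJC17 had -0.12. Once a smooth trend with exonic length was removed from each library, the Rh30 ΔRRM values were -0.22 for IGF1R, -0.42 for INSR, -0.51 for IGF2R, -0.72 for IRS1 and -0.59 for IRS2, all still past the test. Removing a trend with GC content as well, an alternative chosen after seeing the data, gave -0.12 for IGF1R (adjusted p = 0.0415) and -0.27 for IRS2 (0.00455), and -0.79 for IGF2, a gene of 60.5% GC. With sgDNAJC17 in Rh30 the 3 receptors still passed in the same direction after the length correction, at -0.31, -0.29 and -0.41 for IGF1R, INSR and IGF2R, and IRS1 then passed at 0.32 (adjusted p = 0.00222). The IGF1R difference between the lines in ΔRRM cells did not pass after it (-0.18, adjusted p = 0.0753). Between ΔRRM and sgDNAJC17 cells of Rh30, the calls of INSR and IGF2R were lost (-0.14 and -0.11, adjusted p = 0.249 and 0.207) and IGF1R turned to 0.08 (0.16 with length and GC, adjusted p = 0.0286), whereas IRS1, IRS2 and IGF2 still passed.

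**Figure D4:**
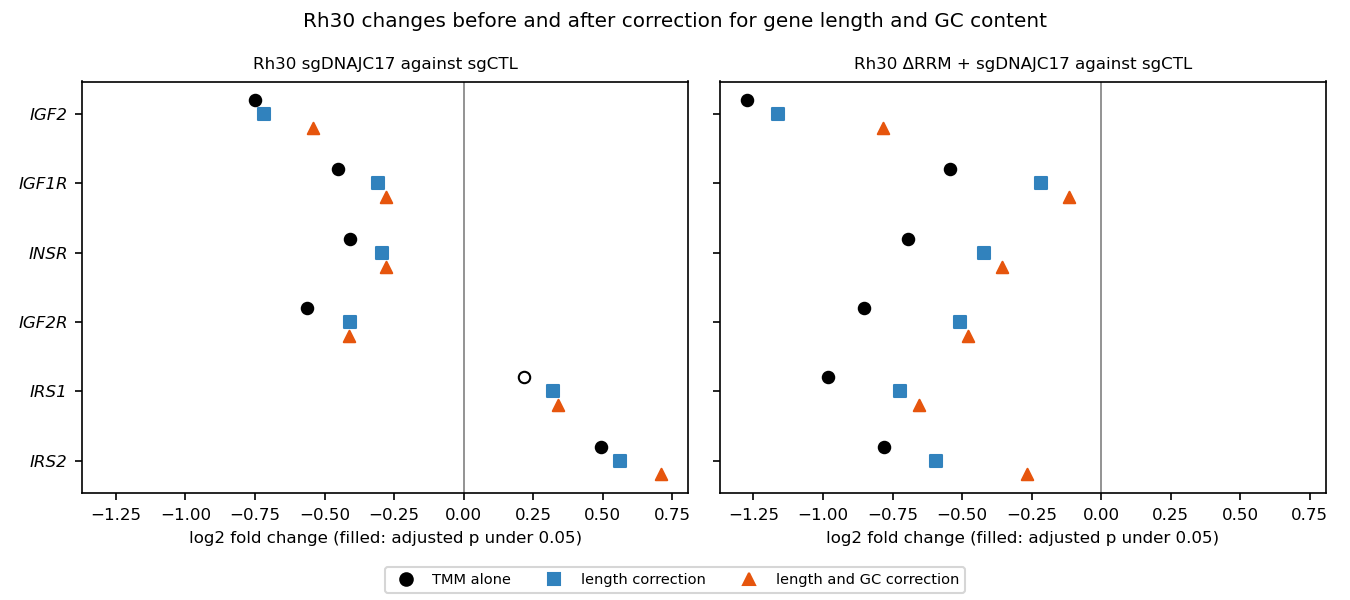
Log2 fold change of the ligand, receptors and substrates in Rh30 with TMM scaling alone (circles), after removal of a trend with exonic length (squares) and after removal of trends with length and GC content (triangles). Filled symbols passed at an adjusted p under 0.05, and all 6 genes in ΔRRM cells move toward 0 with each correction.

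The ratio of IRS1 to IRS2 within a library varied little beside its difference between the lines. With sgDNAJC17, IRS1 to IRS2 was 0.530 to 0.573 in ES8 and 3.35 to 3.95 in Rh30, below the sgCTL range in each line, as it was in ΔRRM cells, at 0.517 to 0.583 and 3.60 to 4.13. These 4 differences ran from -0.26 to -0.14 on the log2 scale, each with p = 0.1 (two-sided exact permutation test), the smallest possible. IGF1R to INSR lay wholly outside the sgCTL range of its line only in ES8 with sgDNAJC17, at 2.77 to 2.98 against 3.14 to 3.36 (p = 0.1, exact permutation test). Its log2 differences from sgCTL within a line ran from -0.16 to 0.14, against 0.32 between the lines.

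Among the other genes of the pathway, the lines differed at a share near that of all genes. With sgCTL, 28 of the 61 tested were higher in Rh30 and 28 lower. Together they made 91.8%, against 87.5% of all genes (42.0% higher and 45.5% lower). IGFBPL1 (81.5 against 2.02 CPM) and SPRY2, an inhibitor of RAS signalling (32.5 against 4.77 CPM), were higher in Rh30. GRB10, an adaptor that inhibits IGF1R and INSR, was at 115 CPM in ES8 and 0.094 CPM in Rh30, and IGFBP4 at 123 against 0.531 CPM. H19, the imprinted RNA next to IGF2, had 81 to 91 counts per ES8 library and 0 in each Rh30 sgCTL library, at least 23.3-fold lower against a floor of 3 counts per library. IGF1 averaged 0.561 CPM in ES8 and was at 0 in all 9 Rh30 libraries, and INS was at 0 in all 18.

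With sgDNAJC17 in ES8, 9 of 62 pathway genes rose and 12 fell, 33.9% against the 27.4% of all genes. HRAS (log2 fold change 0.38), the mTORC1 inhibitor AKT1S1 (0.34) and the receptor inhibitor SOCS3 (0.34) rose most, and the adaptor GRB14 (-0.75), H19 (-0.67) and STC1 (-0.47), which inhibits the IGFBP protease PAPPA, fell most. In Rh30, 5 of 55 rose and 12 fell, 30.9% against 32.3%. NRAS (0.49), RHEB, the activator of mTORC1 (0.41), and EIF4EBP1 (0.32) rose most, and the phosphatase INPPL1 (-0.55), TSC2, which restrains RHEB (-0.53), and MTOR (-0.50) fell most. Of the 11 PI3K and AKT genes, 4 fell and 0 rose, where 16.2% of all genes fell and 16.1% rose.

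In ES8 ΔRRM cells 0 of 61 pathway genes differed from sgCTL by edgeR and 0 by DESeq2, with 5 at an unadjusted p under 0.05. Against sgDNAJC17, GRB14 (0.74), INPPL1 (0.40) and AKT1 (0.36) were higher and SPRY4 (-0.58) was lower, 4 in all of 61, or 6.56% against 14.7% of all genes. In Rh30 ΔRRM cells 7 of 55 were higher than with sgCTL and 36 lower, 78.2% against 68.8% of all genes, with a median of -0.44. RHEB (1.02), DEPTOR (0.73) and IGFBP6 (0.62) were the most raised, and PAPPA (-1.10), MTOR (-0.84) and the adaptor SHC1 (-0.78) the most lowered. The 5 FOXO and GSK3 genes and 9 of the 11 PI3K and AKT genes were lower, where 35.0% of all genes were, and neither subgroup was tested against other genes. Against sgDNAJC17 alone 6 of 55 were higher and 33 lower, 70.9% against 60.0% of all genes (29.4% higher and 30.5% lower), led by DEPTOR (1.23), RHEB (0.61) and SOCS3 (0.40) and by PAPPA (-1.19), TSC1 (-0.76) and SHC1 (-0.66). The shifts of long genes and of muscle markers moved with these Rh30 values too, and that of epithelial markers with the values against sgCTL. Between ΔRRM and sgDNAJC17 cells of Rh30, 0 of the 5 epithelial markers tested differed. The part of these shifts was not tested.

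Over all 18 libraries, centred within each line, the genes were compared with each other and with all other genes of sufficient level. Among up to 7916 genes of at least 10 CPM in each line, the closest to IRS2 was IRS1 (Pearson r = 0.962), followed by LATS2 (0.958). IGF1R was closest to BAZ2A (0.98) and then to IGF2R (0.966), and IGF2R to GBF1 (0.99) and PXDN (0.986). IRS1 was closest to ZNF697 (0.989) and KIRREL1 (0.984), INSR to C2CD3 (0.964) and ZCCHC14 (0.963), and IGF2 to KREMEN1 (0.933) and ZNFX1 (0.929). IGFBP2 (SPINDOC 0.757, RAP2B 0.746), IGFBP5 (ABCC5 0.695, CTSC 0.657) and IGFBP3 (TDRKH 0.628, R3HCC1L 0.531) had no gene as close, and all 3 had few counts in Rh30. IRS1 had an r of 0.589 with IGF1R and 0.671 with IGF2, whereas IGF1R and IGF2R had 0.846 and 0.862 with IGF2. IRS2 had 0.43 with IGF1R, 0.502 with IGF2R and 0.508 with IGF2, below its 0.63 with the binding protein IGFBP2. These values describe 18 points that share libraries, 2 lines and the length trend, and carry no test.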

How the data were processed

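Poly-A selected RNA was sequenced from 18 libraries. Per the labels, the authors trimmed reads with Trimmomatic 0.36, aligned them to GRCh38 with STAR 2.5.2b and counted them per gene with featureCounts of Subread 1.5.2. The deposited values are raw counts of 57500 genes, with coordinates within 1000 bases of a GRCh38 annotation for 97.1% of 18964 protein-coding genes. The strand setting was not given in the sources used here. Symbols were matched for 55082 genes by identifier.

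From the counts, edgeR 4.0.16 (R 4.3.3) was run with filterByExpr, TMM and the quasi-likelihood test on the libraries of the groups compared, or of 4 groups for the difference between lines. P-values were adjusted by Benjamini-Hochberg over all genes tested, and a gene passed below 0.05. Levels in CPM and RPKM used TMM over all 18 libraries. DESeq2 1.42.0, other scalings and filters, 1 fit of all 18 libraries, a replicate block, trend corrections (lowess span 0.3; GC from transcript sequences by gene identifier) and leaving out each library were tried. Before use, the edgeR fit was run on simulated data for sgDNAJC17 against sgCTL in each line. It was also run for the lines with sgCTL and for the sgDNAJC17 difference between them. The ΔRRM comparisons and the alternatives were not simulated.

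Members and lists were chosen with earlier results of these data known. Of the pathway list, up to 3 genes per direction and comparison were named, by log2 fold change, among those past the test with at least 1 CPM in a group, and for each of the 9 genes the 2 with the highest r. A gene that this rule named is not reported here. H19, IGFBP7 and GRB10, which the rule named for the ΔRRM difference between lines, get no value there because each Rh30 library held fewer than 10 counts. Markers stand where they bear on a result, and IGF1 and INS were added after their values were seen.

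Replicates of a group differed by more than sampling noise. Over genes of at least 100 counts on average, same-letter libraries deviated together in the Rh30 sgDNAJC17 comparison (r = 0.576, 0.287 and 0.348 for A, B and C). The block was therefore read there as an alternative, although the labels give letters and state no pairing. In every other comparison at least 1 letter was below 0.1. Intervals and limits of low counts cover counting error only. Protein sequences were not used here.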

Additional observations from a re-analysis of the deposited data

Results flagged for a closer look

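The differences between the lines (Rh30 minus ES8, log2, edgeR interaction term) that passed the test were these. With sgDNAJC17 they were -0.55 for IGF2, -0.41 for IGF1R, -0.53 for INSR and -0.40 for IGF2R, and of the pathway genes named, 0.44 for NRAS (adjusted p = 0.0322), -0.65 for SOCS3 (0.00401), -0.51 for FOXO3 (0.0166) and -0.46 for AKT1S1 (0.0159). In ΔRRM cells they were -0.65 for IGF2, -0.40 for IGF1R, -0.52 for INSR, -0.71 for IGF2R, -0.82 for IRS1 and -0.76 for IRS2, and of the pathway genes, 0.92 for SOCS2 (adjusted p = 0.018), 0.85 for RHEB (2.08e-07) and -0.95 for FOXO1 (1.56e-05). SOCS3, a feedback inhibitor, averaged 28.3 CPM with sgCTL and 36.4 CPM with sgDNAJC17 in ES8, and 96.9 and 76.2 CPM in Rh30. RHEB averaged 98.5 CPM with sgCTL, 129 CPM with sgDNAJC17 and 195 CPM in ΔRRM cells of Rh30, against 77.2, 83.7 and 87.5 CPM in ES8. Of 8 epithelial markers tested, 5 also differed between the lines in each comparison, and their part was not tested.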

How the results depend on the processing

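Requiring 2-fold left 0 genes in both comparisons of sgDNAJC17 with sgCTL and in both ES8 ΔRRM comparisons, 1 and 2 in Rh30 ΔRRM cells against sgCTL and sgDNAJC17, and 5 between the lines. In ES8 ΔRRM cells against sgCTL, 1 gene passed in place of 0 with DESeq2, no filter, one fit of all 18 libraries, the replicate block, the length correction or length and GC together, and all genes past the test went from 30 to 122, 519, 48, 102, 97 and 127. Against sgDNAJC17, 2 became 1 with library size alone or the replicate block, 4 with no filter or the length correction, and 5 with one fit or length and GC, and all genes went from 2516 to 1353 with the block, 4536 with one fit and 5367 with length and GC. With length and GC the ES8 sgDNAJC17 count was 5 in place of 3 (all genes 7104 in place of 4701), and all genes in the sgDNAJC17 difference between lines were 3181 in place of 1848. The length correction left 3 of 5 genes between Rh30 ΔRRM and sgDNAJC17 cells. The length and GC correction was chosen after seeing the data.

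With the length correction, and then with length and GC, IGF1R became 0.14 and 0.094 in ES8 with sgDNAJC17 (0.0031 in one fit), 0.081 and 0.16 between Rh30 ΔRRM and sgDNAJC17 cells (the latter past the test, adjusted p = 0.0286, as was -0.27 with library size alone, adjusted p = 0.00649), and 0.048 and 0.033 between the lines. Likewise IRS2 became 0.036 and 0.032 in ES8 ΔRRM cells against sgCTL and IGFBP5 0.013 and 0.041 in Rh30 with sgDNAJC17. IGF2R between ES8 ΔRRM and sgDNAJC17 cells became -0.045 and -0.017 by these, -0.011 in one fit, -0.0002298 with DESeq2 size factors and -0.0002453 with the replicate block. With length alone IGF2R was 0.025 in ES8 with sgDNAJC17 and IGFBP5 0.0089 in ES8 ΔRRM cells against sgCTL. With length and GC IGFBP2 was 0.043 in Rh30 ΔRRM cells against sgCTL and 0.15 in the sgDNAJC17 difference between lines, where IRS1 was -0.0019 in one fit. Of called differences between lines in ΔRRM cells, IGF2 was lost with length and GC (-0.18, adjusted p = 0.231) and IGF1R with either correction.

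Leaving out 1 library gave 2 to 6 genes in ES8 with sgDNAJC17, 0 to 1 in both ES8 ΔRRM comparisons and 0 to 4 in the sgDNAJC17 difference between lines. All genes past the test were 2502 to 2707 without any 1 ES8 sgCTL library in the first, and 2 to 460 in ES8 ΔRRM cells against sgCTL. The direction turned within these ranges: IGF1R -0.056 to 0.0073 in ES8 and IGFBP5 -0.52 to 0.28 in Rh30 with sgDNAJC17, IRS2 -0.099 to 0.071 and IGFBP5 -0.10 to 0.072 in ES8 ΔRRM cells and IGFBP2 -0.41 to 0.030 in Rh30 ΔRRM cells against sgCTL, and IGFBP2 -0.14 to 0.037 and IGF2R -0.081 to 0.14 between ES8 ΔRRM and sgDNAJC17 cells. For differences between lines the ranges were IGFBP2 -0.18 to 0.26, IGFBP3 -2.96 to 1.64 and IRS1 -0.037 to 0.15 with sgDNAJC17, and IGFBP3 -2.81 to 2.01 in ΔRRM cells. The log2 IGF1R to INSR ratio moved from -0.13 to 0.023 in Rh30 with sgDNAJC17 and from -0.0089 to 0.058 in ES8 ΔRRM cells.

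With the replicate block, IRS1 in Rh30 with sgDNAJC17 passed (0.21, adjusted p = 0.000362), and no other call of that comparison changed. Same-letter libraries deviated together there, although the labels state no pairing. Elsewhere samples share only a letter. There the block added IGF2 in ES8 ΔRRM cells against sgCTL (-0.62, adjusted p = 0.0281) and lost IRS2 between ES8 ΔRRM and sgDNAJC17 cells (-0.34, adjusted p = 0.0834). Scaling by library size alone moved the median of all genes by -0.23 in Rh30 ΔRRM cells against sgCTL, -0.16 against sgDNAJC17, and -0.21 between the lines and in the ΔRRM difference between lines. The share of calls that were higher went from 49.7% to 39.3% and 34.8% with sgDNAJC17 in ES8 and Rh30, from 49.1% to 33.2% and 34.1% in Rh30 ΔRRM cells against sgCTL and sgDNAJC17, and from 53.5% to 37.3% and 48.2% to 30.3% for the sgDNAJC17 and ΔRRM differences between lines. Where a cause is not part of the alternative itself, it was not tested. IGFBP2, IGFBP3 and IGFBP5 in Rh30 are limited by depth.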
